A study of Homo sapiens with 6 samples.

Results

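Nearly all proteins of mitochondria are made in the cytosol and enter the organelle through protein translocases. The genes of this import route were compared here between Saos-2 cells treated with ailanthone and cells treated with its solvent. The 36 genes were those whose symbol begins with TIMM or TOMM, plus PAM16, DNAJC19, GRPEL1, HSPD1, HSPE1, PMPCA, PMPCB, SAMM50, MTX1, MTX2, CHCHD4 and GFER. A mean CPM (read counts scaled to a common library size) of at least 1 over the 6 libraries was required. They were 36 of the 13439 genes listed in the deposited table and of the 11069 genes that reached this mean. No gene with these names had a mean under 1 CPM, and the lowest were TIMM23B at 5.35 CPM and, next to it, TIMM10B.

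Saos-2 is an established human osteosarcoma line. One group of 3 libraries came from cells given ailanthone (AIL), a quassinoid of plant origin, at 0.20 µM for 24 h, and the other 3 from cells given DMSO for 24 h. The submitters name the replicates biological without saying how the cultures were kept apart. The p-values below thus set group differences against the spread of these 6 libraries within their groups. The design asked which pathways the compound altered.

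Precursors cross the outer membrane through the TOM complex, and barrel-shaped proteins are then inserted by the SAM complex. Small TIM chaperones carry hydrophobic precursors through the intermembrane space to TIM22, and a disulfide relay of CHCHD4 and GFER folds cysteine-rich proteins there. TIM23 and its motor move precursors with a presequence into the matrix, where a peptidase removes the presequence and the HSPD1 and HSPE1 chaperonin folds many of the products.

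The libraries held 32540000 to 38050000 reads on the scale of the deposited values, with the AIL libraries at the upper end, and the lowest import gene value, TIMM23B in a DMSO library, stood for 149 reads. RUNX2, a factor of the osteoblast lineage, was at 4.36 to 5.04 CPM, while SPP1 stayed at or under 0.28 and BGLAP at or under 0.16 CPM. The other osteoblast markers chosen for this check are not used here. Of 10 markers of other cell types 4 had values, and their sum went from 0.79 to 1.00 CPM in the DMSO libraries to 2.70 to 3.48 CPM in the AIL libraries. CD68, a lysosomal protein known from macrophages, made up most of that sum (0.73 to 0.79 against 2.48 to 3.26 CPM), and CDH5, VWF and ACTC1 stayed at or under 0.16 CPM. Of the 13 mitochondrially encoded transcripts, 10 (76.9%) were lower under AIL by limma, beside 25.9% of all genes tested, and 0 were higher, also at an unadjusted p under 0.05. Under DMSO these transcripts ran from 24.32 (MT-ND5) to 2143 (MT-CO3) CPM per kilobase, and sequence shared with other genes was not checked for them. Their median log2 difference was -0.20, and MT-ND3, MT-ND4L and MT-CYB, named after their values were seen, did not pass (-0.050, -0.092 and 0.033). The part of these shifts in the results below was not tested.

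Of the 36 import genes, 22 were higher under AIL, 5 were lower and 9 did not pass the test (limma on log2(CPM + 1), Benjamini-Hochberg adjusted p under 0.05 over all 11069 genes). Among all genes tested, 28.2% were higher and 25.9% lower, 54.1% together, against 61.1%, 13.9% and 75.0% of the import genes. The median log2 difference, AIL minus DMSO, was 0.14 over the import genes and 0.0083 over all genes tested. No overlap between the groups was seen for 28 of the 36, or 77.8%, against 60.1% of all genes tested. The log2 differences ran from -0.17 to 0.60, with a median size of 0.16 beside 0.13 over all genes tested. Across the 15 alternative analyses, 20 to 25 import genes were higher and 5 lower. The values are scaled to the bulk of transcripts and come from whole cultures, so less RNA per cell and fewer cells of a kind cannot be told apart.

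**Figure D1:**
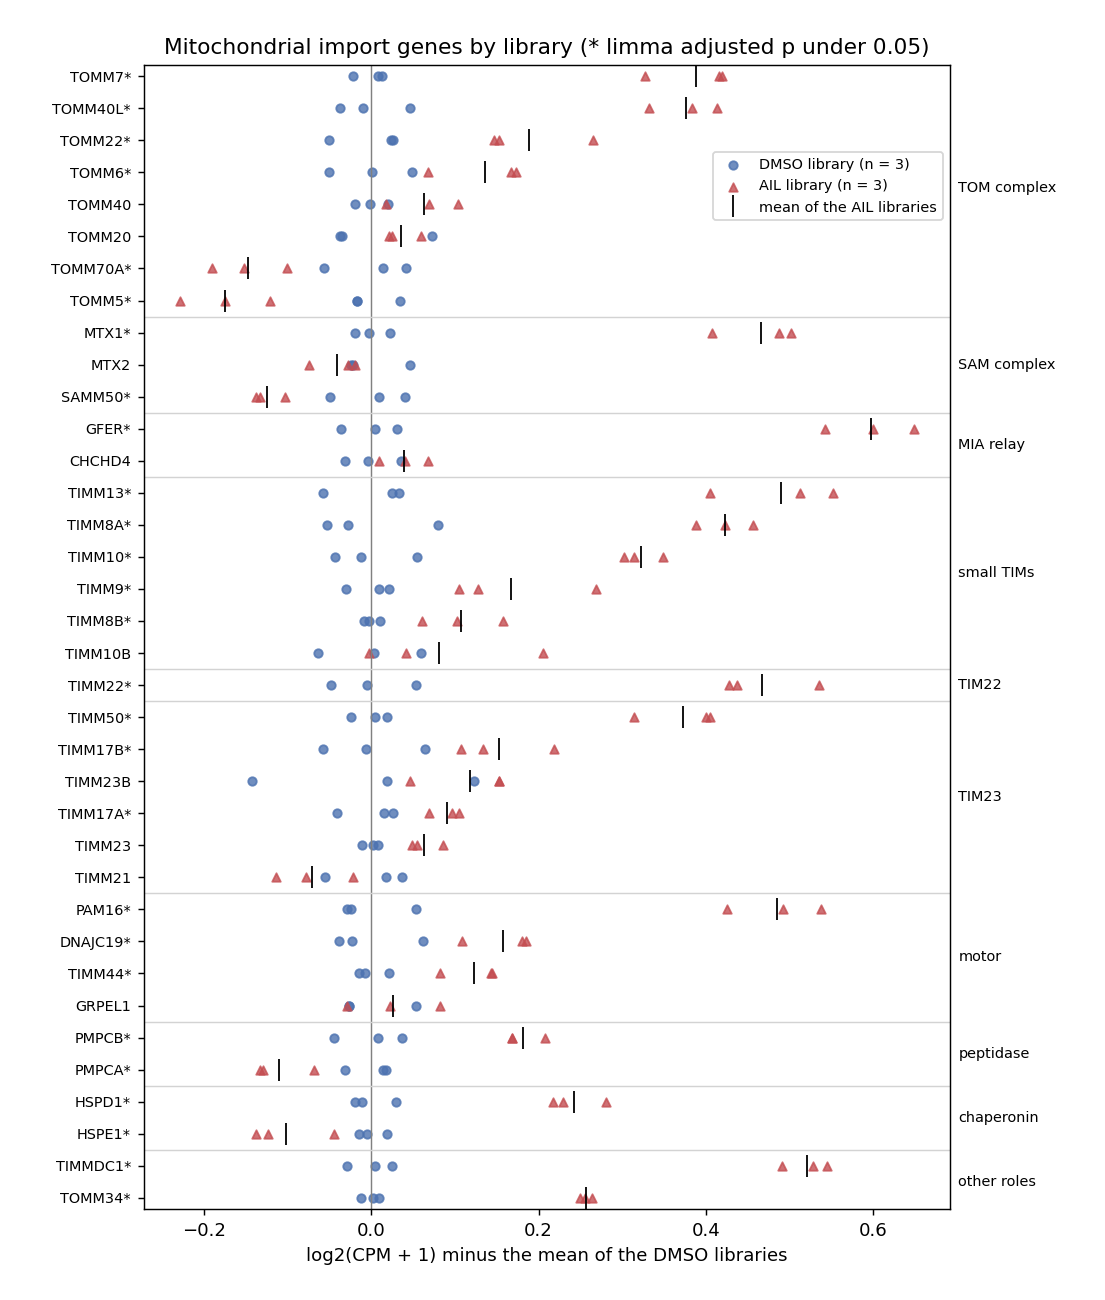
Each row is an import gene, grouped by role, and each point a library: its log2(CPM + 1) minus the mean of the DMSO libraries (circles DMSO, triangles AIL, n = 3 each; the black tick is the AIL mean, and an asterisk marks an adjusted p under 0.05). GFER, TIMMDC1, TIMM13 and PAM16 lie farthest to the right, TOMM5 and TOMM70A farthest to the left.

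**Figure D2:**
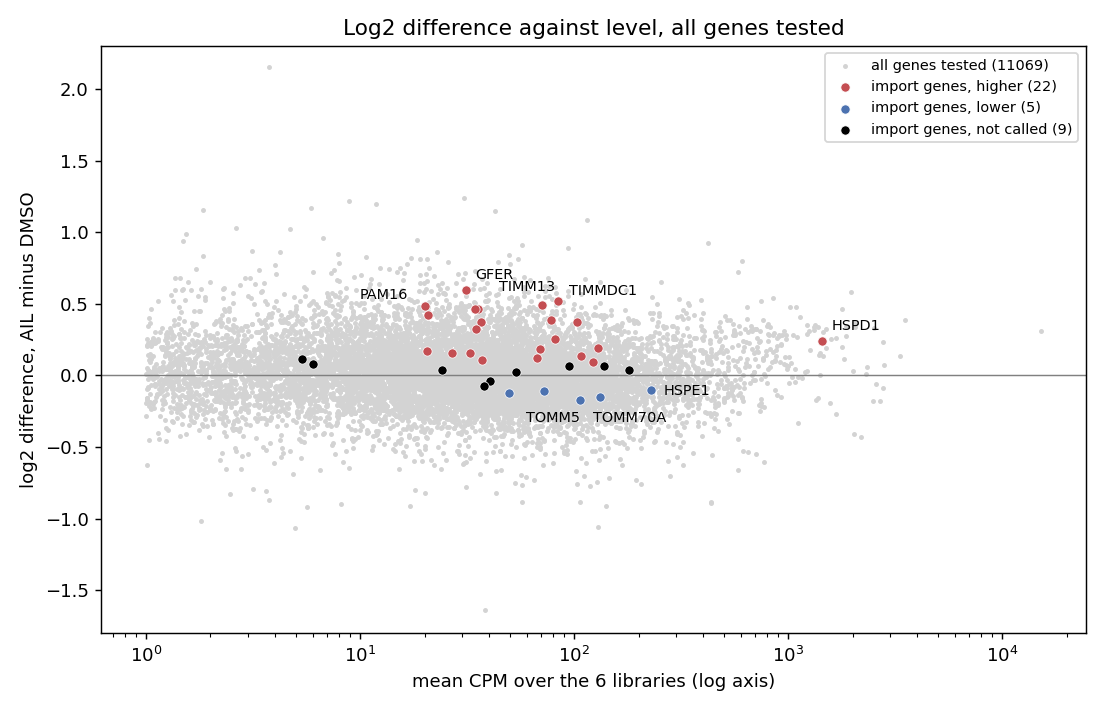
The log2 difference, AIL minus DMSO, is plotted against the mean CPM over the 6 libraries (log axis), with all 11069 tested genes in grey and the import genes in red (22 higher), blue (5 lower) or black (9 not called). The import genes span mean levels from 5.35 CPM for TIMM23B to 1446 CPM for HSPD1 and stay inside the range of the other genes.

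The chaperonin genes went in opposite directions although they lie head to head. HSPD1 encodes the ring-forming HSP60 and HSPE1 its lid, HSP10. In the RefSeq windows (build GRCh38.p14, 250 bases before to 50 bases after a start), the upstream HSPD1 start lies 105 bases from the HSPE1 start on the other strand, and these windows share 204 bases. The second HSPD1 start lies 539 bases from the HSPE1 start. The windows are shown because the genes differ in direction although their starts are neighbours. Capitals mark the palindromic motif of the factor NRF1 in the shared stretch, and GAANNTTC or TTCNNGAA, the paired units of a heat shock element, in the window of the second HSPD1 start. Both strands were searched, and matches of the heat shock letters overlap.
HSPE1, chr2:197500129-197500428, plus strand: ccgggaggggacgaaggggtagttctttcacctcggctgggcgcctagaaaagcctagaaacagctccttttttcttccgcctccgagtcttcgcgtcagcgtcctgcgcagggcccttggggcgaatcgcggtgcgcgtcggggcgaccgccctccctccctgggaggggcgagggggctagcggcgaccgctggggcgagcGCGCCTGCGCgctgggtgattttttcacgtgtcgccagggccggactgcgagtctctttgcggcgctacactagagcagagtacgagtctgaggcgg
HSPD1, upstream start, chr2:197500225-197500524, minus strand: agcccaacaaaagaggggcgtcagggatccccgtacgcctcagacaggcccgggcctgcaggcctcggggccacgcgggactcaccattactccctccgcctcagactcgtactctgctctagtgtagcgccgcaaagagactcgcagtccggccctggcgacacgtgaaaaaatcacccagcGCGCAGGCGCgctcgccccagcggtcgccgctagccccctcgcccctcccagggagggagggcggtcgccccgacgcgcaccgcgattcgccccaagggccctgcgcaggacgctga
HSPD1, second start, chr2:197499791-197500090, minus strand: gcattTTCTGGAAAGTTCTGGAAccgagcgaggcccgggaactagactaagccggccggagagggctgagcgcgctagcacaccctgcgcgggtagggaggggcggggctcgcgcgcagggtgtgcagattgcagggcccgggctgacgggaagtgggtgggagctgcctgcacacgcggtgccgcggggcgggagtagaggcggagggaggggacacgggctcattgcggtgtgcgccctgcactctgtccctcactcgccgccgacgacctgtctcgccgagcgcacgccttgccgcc
A run of at least 3 heat shock units in alternating orientation was found in HSPD1 alone among the 33 import genes with a window. It was found in 0.507% of the 8486 tested genes with a window. This run lies between the second HSPD1 start and the HSPE1 start, just outside the HSPE1 window. That HSPE1 is not counted thus depends on where its window ends. The paired units alone were near or below their share among tested genes. TTCNNGAA was in 3 of the 33 (9.09%), HSPD1, TIMM10 and TOMM70A, beside 8.39% of tested genes with a window. GAANNTTC was in 1 (3.03%), beside 6.41%. Of these genes TIMM10 was higher under AIL and TOMM70A lower. A match describes the letters, not a site in use.

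HSPD1 stood at 1314.94, 1307.14 and 1352.06 CPM in the DMSO libraries and at 1553.38, 1540.07 and 1608.9 CPM in the AIL libraries. All AIL libraries were above all DMSO libraries, by 18.3% in the mean (log2 difference 0.24, SE 0.026, limma adjusted p = 5.81e-07). HSPE1 stood at 234.54, 235.95 and 240.08 CPM under DMSO and at 217.38, 215.26 and 229.66 CPM under AIL. Here all AIL libraries were below all DMSO libraries, by 6.79% in the mean (log2 difference -0.10, SE 0.028, limma adjusted p = 0.00572). Within a library, the ratio of HSPD1 to HSPE1 was 5.59 ± 0.0474 under DMSO and 7.10 ± 0.0836 under AIL (SD, n = 3), and the groups did not overlap. An exact two-sided permutation test gave p = 0.1, the smallest value that 3 libraries against 3 allow. Per kilobase of the longest principal transcript in GENCODE 29, HSPD1 went from 539.6 to 638.5 and HSPE1 from 249.3 to 232.4 CPM, the highest levels among the import genes in both groups. The size of the HSPD1 rise depended on scaling, with 0.10 after quantile normalization and 0.16 once a smooth dependence on length, GC content and abundance was taken out, where HSPE1 was at -0.16. Of the 50-base words of HSPD1 and HSPE1, 17.8% and 22.8% also occur in other annotated genes, for HSPE1 mainly in the read-through gene HSPE1-MOB4. The use of strand in counting is not given in the sources used here. The same limit holds for import genes with a gene on the opposite strand, such as GFER, TIMMDC1, TIMM13, MTX1, TIMM22, PMPCA and PMPCB.

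At the outer membrane, the 8 TOM genes were mixed, with 4 higher, 2 lower and 2 that did not pass, beside 28.2% higher and 25.9% lower of all genes tested. TOMM7, a small subunit, rose from 66.28, 67.89 and 67.7 CPM in the DMSO libraries to 90.12, 84.65 and 90.34 CPM in the AIL libraries (log2 difference 0.39, SE 0.033, limma adjusted p = 4.01e-08). The lowest AIL library was well above the highest DMSO library. TOMM5, another small subunit, fell from 111.23, 111.27 and 115.34 CPM to 99.64, 95.99 and 103.51 CPM (log2 difference -0.17, SE 0.032, limma adjusted p = 2.00e-04), the lowest log2 difference among the import genes. TOMM6, the third of these small subunits, rose by 9.99% (limma adjusted p = 0.00307), or by 0.074 on the log2 scale after removal of the length, GC and abundance trend. Other annotated genes share 62.9% of the 50-base words of TOMM5 and 100.0% of those of TOMM6, mainly a gene model that overlaps each on the same strand, so the counts of both are uncertain.

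The receptors of the TOM complex also differed among themselves. TOMM70A, which receives carrier precursors and docks cytosolic chaperones, fell from 143, 133.58 and 140.34 CPM to 124.92, 121.64 and 129.55 CPM (log2 difference -0.15, SE 0.032, limma adjusted p = 9.12e-04), with no overlap between the groups. After removal of the length, GC and abundance trend its log2 difference was -0.083. TOMM22, the central receptor, rose by 14.1% (log2 difference 0.19, limma adjusted p = 1.78e-04). TOMM20, the presequence receptor and the TOM gene with the highest mean CPM, was at 174.75, 174.38 and 188.31 CPM under DMSO and at 186.63, 181.64 and 182.21 CPM under AIL. Its groups overlapped (log2 difference 0.035, 95% interval -0.030 to 0.10, limma adjusted p = 0.353). With quantile normalization its adjusted p from limma was 0.042, and with the trend removed 9.92e-04, at log2 differences of 0.072 and 0.10.

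The channel gene TOMM40 did not pass, while its paralog TOMM40L rose. TOMM40 was at 136.31, 134.18 and 132.61 CPM in the DMSO libraries and at 141.01, 144.4 and 136.06 CPM in the AIL libraries, where the lowest AIL library fell within the DMSO range (log2 difference 0.063, 95% interval 0.0022 to 0.12, limma adjusted p = 0.0745). With the replicate number as a block its limma adjusted p was 0.0304, with quantile normalization 0.0237 and without AIL replicate 3 it was 0.00981. TOMM40L went from 31.65, 32.93 and 31.03 CPM to 42.76, 41.88 and 40.35 CPM (log2 difference 0.38, SE 0.041, limma adjusted p = 6.08e-07). The ratio of TOMM40 to TOMM40L went from 4.22 ± 0.126 to 3.37 ± 0.0751 (SD, n = 3; exact permutation test, p = 0.1). Per kilobase, TOMM40 remained the more abundant transcript, at 81.4 against 15.4 CPM per kilobase under AIL.

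The SAM genes split as well. SAMM50, the barrel that inserts other barrels, fell from 52.39, 50.28 and 53.58 CPM to 47.41, 47.22 and 48.43 CPM (log2 difference -0.12, SE 0.036, limma adjusted p = 0.00763). MTX1, a metaxin on its cytosolic side, rose from 28.61, 29.12 and 28.27 CPM to 41, 40.59 and 38.35 CPM (log2 difference 0.47, SE 0.041, limma adjusted p = 5.57e-08). Its partner MTX2 was at 40.28, 40.23 and 42.28 CPM under DMSO and at 40.11, 40.36 and 38.82 CPM under AIL, with overlapping groups (log2 difference -0.041, 95% interval -0.12 to 0.041, limma adjusted p = 0.391). The CPM ratio of MTX1 to MTX2 thus went from 0.701 ± 0.0288 to 1.00 ± 0.0172 (SD, n = 3, exact permutation test, p = 0.1). Per kilobase, MTX1 went from 26.42 to 36.85 CPM and MTX2 from 30.01 to 29.15 CPM. Of the 50-base words of MTX1, 33.4% also occur in other genes, chiefly the pseudogene MTX1P1.

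In the intermembrane space relay, GFER showed the highest log2 difference among the import genes. It encodes the sulfhydryl oxidase that reoxidises CHCHD4. GFER was at 24.15, 25.34 and 24.86 CPM in the DMSO libraries and at 38.06, 39.4 and 36.54 CPM in the AIL libraries, 53.3% more in the mean (log2 difference 0.60, SE 0.043, limma adjusted p = 5.62e-09). Every AIL library was above every DMSO library. CHCHD4, the oxidoreductase itself, had means of 23.7 ± 0.578 and 24.4 ± 0.510 CPM (SD, n = 3) and overlapping groups (log2 difference 0.039, 95% interval -0.056 to 0.13, limma adjusted p = 0.484).

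Of the 6 small TIM chaperones, 5 (83.3%) were higher, 0 were lower and TIMM10B did not pass, beside 28.2% higher among all genes tested, and the calls of TIMM8B and TIMM9 were lost under some alternatives. TIMM8A and TIMM13 form one hexamer, TIMM9 and TIMM10 the other. TIMM13 rose from 60.01, 59.69 and 56.29 CPM to 84.05, 86.4 and 77.97 CPM (log2 difference 0.49, SE 0.039, limma adjusted p = 1.92e-08), and AIL replicate 3 was the lowest of its AIL libraries. TIMM8A rose from 16.84, 17.16 and 18.56 CPM to 24.39, 23.22 and 23.81 CPM (log2 difference 0.42, SE 0.051, limma adjusted p = 2.17e-06). Both genes had separate groups.

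TIMM10 rose by 25.8% (log2 difference 0.32, limma adjusted p = 4.16e-06) and TIMM9 by 13.1% (log2 difference 0.17, limma adjusted p = 0.0126). The TIMM9 call was narrowly lost without AIL replicate 3, at a log2 difference of 0.12 and a limma adjusted p of 0.0603. All AIL libraries, at 21.18, 20.82 and 23.45 CPM, were above the highest DMSO library at 19.59 CPM. TIMM8B, the paralog of TIMM8A, went from 35.43, 35.57 and 35.92 CPM to 39.87, 38.35 and 37.2 CPM (log2 difference 0.11, SE 0.039, limma adjusted p = 0.0297). Its limma adjusted p rose to between 0.0517 and 0.151 without AIL replicate 1, AIL replicate 2 or any one of the DMSO replicates, and it was 0.503 at a log2 difference of 0.029 with the length, GC and abundance trend removed. The ratio of TIMM8A to TIMM8B went from 0.492 ± 0.0221 to 0.619 ± 0.0184 (SD, n = 3; exact permutation test, p = 0.1). TIMM10B, a small TIM held at the TIM22 complex, was at 5.5, 5.81 and 6.08 CPM under DMSO and at 5.78, 6.83 and 5.99 CPM under AIL, and its groups overlapped (95% interval of the log2 difference -0.080 to 0.24).

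TIMM22, the channel that inserts carriers into the inner membrane, went from 30.73, 29.48 and 28.58 CPM in the DMSO libraries to 43.31, 40.42 and 40.13 CPM in the AIL libraries (log2 difference 0.47, SE 0.044, limma adjusted p = 1.09e-07). The lowest AIL library was above the highest DMSO library.

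Among the 6 TIM23 genes, 3 were higher, 0 were lower and 3 did not pass, a share of calls close to the 54.1% of all genes tested. TIMM50, the receptor that hands presequences to the channel, stood at 89.5 ± 1.39 CPM under DMSO and rose to 116.3 ± 4.09 CPM under AIL (SD, n = 3; log2 difference 0.37, limma adjusted p = 3.28e-08). TIMM17A, a core subunit, was at 119.47, 114.87 and 120.39 CPM under DMSO and at 127.21, 124.08 and 126.51 CPM under AIL (log2 difference 0.090, SE 0.029, limma adjusted p = 0.0135). Its limma adjusted p was 0.0968 without DMSO replicate 2, 0.0522 without AIL replicate 1 and 0.0528 without the intensity trend. TIMM17B, its X-linked paralog, was at 32.23, 30.63 and 29.52 CPM under DMSO and at 33.85, 35.97 and 33.22 CPM under AIL (log2 difference 0.15, SE 0.045, limma adjusted p = 0.00877). That call was lost without AIL replicate 2 (log2 difference 0.12, limma adjusted p = 0.0540) and with the length, GC and abundance trend removed (log2 difference 0.052, limma adjusted p = 0.238). Their ratio was 3.84 ± 0.203 under DMSO and 3.67 ± 0.194 under AIL, with overlapping groups (SD, n = 3; exact permutation test, p = 0.6).

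The channel gene TIMM23 had means of 92.1 ± 0.667 and 96.3 ± 1.35 CPM (SD, n = 3), and its groups did not overlap, but it missed the threshold (log2 difference 0.063, 95% interval 0.0027 to 0.12, limma adjusted p = 0.0722). With the replicate number as a block its limma adjusted p was 0.0399, and with quantile normalization 0.00896 at a log2 difference of 0.095. Its copy TIMM23B was at 5.62, 4.51 and 5.16 CPM under DMSO and at 5.76, 5.28 and 5.76 CPM under AIL, and the groups overlapped (limma adjusted p = 0.234). The copies share 17.0% of the 50-base words of TIMM23 and 24.0% of those of TIMM23B mainly with each other, so reads can be counted for either. TIMM21, which links TIM23 to the TOM complex, had a log2 difference of -0.071 (95% interval -0.16 to 0.016, limma adjusted p = 0.157).

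In the import motor, 3 of 4 genes (75.0%) were higher and 0 lower, beside 28.2% and 25.9% of all genes tested. PAM16, a J-like regulator of the motor, rose from 16.29, 17.25 and 16.24 CPM to 23.73, 24.52 and 22.61 CPM (log2 difference 0.48, SE 0.051, limma adjusted p = 4.05e-07), with no overlap. The read-through gene CORO7-PAM16 holds most of the 31.7% of its 50-base words that occur elsewhere. DNAJC19, the J protein partner of PAM16, rose from 25.3 to 28.3 CPM in the mean (log2 difference 0.16, limma adjusted p = 0.00753). TIMM44, which tethers the motor to the channel, went from 63.76, 65.05 and 63.46 CPM to 70.86, 70.91 and 67.92 CPM (log2 difference 0.12, SE 0.032, limma adjusted p = 0.00393). GRPEL1, the nucleotide exchange factor, had means of 52.8 ± 1.73 and 53.8 ± 2.10 CPM (SD, n = 3) and a log2 difference of 0.026 (95% interval -0.055 to 0.11, limma adjusted p = 0.595).

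The subunits of the presequence peptidase went in opposite directions. PMPCA, the substrate-binding subunit, fell from 76.33, 73.77 and 76.16 CPM to 71.86, 68.67 and 68.87 CPM (log2 difference -0.11, SE 0.032, limma adjusted p = 0.00819). PMPCB, the catalytic subunit, rose from 62.65, 64.99 and 66.31 CPM to 72.78, 72.74 and 74.8 CPM (log2 difference 0.18, SE 0.033, limma adjusted p = 1.69e-04). Neither gene had overlapping groups. By CPM, PMPCA exceeded PMPCB in each DMSO library and was below it in each AIL library. The ratios of the CPM values were 1.17 ± 0.0447 and 0.951 ± 0.0338 (SD, n = 3, exact permutation test, p = 0.1). Per kilobase, the PMPCA mean stayed above that of PMPCB, at 34.69 against 26.15 CPM under DMSO and 32.11 against 29.71 CPM under AIL.

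**Figure D3:**
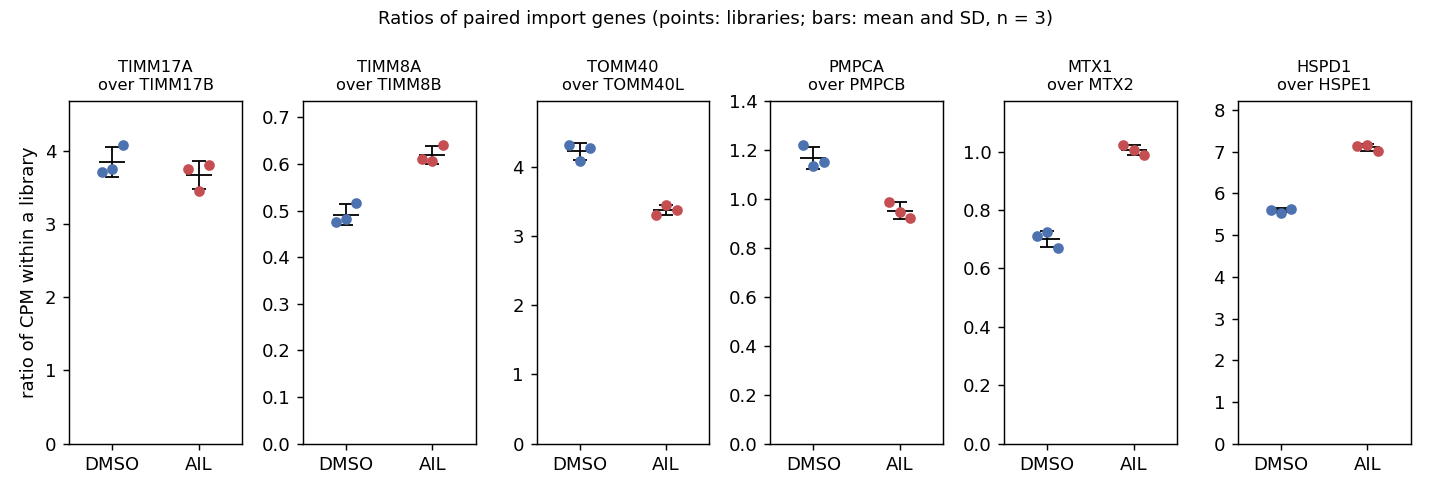
The ratio of CPM values within a library is shown for 6 pairs of import genes, with 1 point per library, the mean and the SD (n = 3 per group; each vertical axis starts at 0). The groups are apart for 5 of the 6 ratios and overlap for TIMM17A over TIMM17B.

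These 6 ratios were the ones compared, and with adjustment over them the exact permutation p was 0.12 for the 5 ratios whose groups did not overlap and 0.6 for TIMM17A over TIMM17B. With 3 libraries a group the test cannot reach 0.05. A ratio within a library shows unequal change of its genes, not which of them changed, and it does not depend on the scaling factor of the library.

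TIMMDC1 and TOMM34 share the naming but not the role. TIMMDC1, an assembly factor of respiratory complex I, rose from 70.24, 67.62 and 69.26 CPM to 101.19, 97.4 and 99.95 CPM (log2 difference 0.52, SE 0.031, limma adjusted p = 4.74e-10), the smallest p among the import genes. TOMM34, a cytosolic co-chaperone of HSP70 and HSP90, rose by 19.7% (log2 difference 0.26, SE 0.029, limma adjusted p = 1.14e-06). No overlap was seen for either gene. Without these 2 genes, 20 of the remaining 34 import genes were higher, 5 lower and 9 not called.

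Members varied little within a group. The coefficient of variation of the CPM values over 3 libraries had a median of 2.87% under DMSO (0.708 to 10.9%) and of 3.24% under AIL (0.502 to 8.96%). Summed over the 36 genes, the libraries held 3595 to 3682 CPM under DMSO and 4032 to 4122 CPM under AIL. Without HSPD1, the most abundant by far, the sums were 2288 to 2329 and 2492 to 2543 CPM. Both sums were higher in every AIL library than in any DMSO library.

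Promoter windows were matched for 33 of the 36 genes, not for TOMM5, GRPEL1 and TIMM8B, and TOMM70A was matched as TOMM70. The motif CCGGAAG of ETS factors was in 13 of the 33 (39.4%), beside 24.4% of tested genes with a window and 10.3% of all 35116 windows. The NRF1 motif was in 8 (24.2%), beside 14.6% and 5.78%, and CCAAT in 11 (33.3%), beside 43.9% and 34.6%. The YY1 motif was in 2 of the 33 (6.06%), beside 3.71% and 1.2%. Genes with several starts have several windows, which raises their chance of a match. The letters TGATGCAA, part of the element bound by ATF4 with a C/EBP partner, were in 2 of the 33 genes (6.06%), beside 0.695% and 0.866%. Both genes, TIMM22 and PMPCB, were higher under AIL, as were 21 of the 33 genes with a window, and a link to the letters was not tested. Their windows, chosen for these calls, are shown with the letters in capitals as they read on the other strand. No other motif is marked in them.
TIMM22, chr17:996879-997178, plus strand: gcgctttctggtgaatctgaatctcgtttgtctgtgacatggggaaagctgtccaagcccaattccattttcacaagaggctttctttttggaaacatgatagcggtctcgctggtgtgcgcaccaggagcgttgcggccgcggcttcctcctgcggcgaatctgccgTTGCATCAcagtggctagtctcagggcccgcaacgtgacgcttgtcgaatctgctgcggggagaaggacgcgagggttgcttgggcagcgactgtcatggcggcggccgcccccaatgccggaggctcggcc
PMPCB, chr7:103297185-103297484, plus strand: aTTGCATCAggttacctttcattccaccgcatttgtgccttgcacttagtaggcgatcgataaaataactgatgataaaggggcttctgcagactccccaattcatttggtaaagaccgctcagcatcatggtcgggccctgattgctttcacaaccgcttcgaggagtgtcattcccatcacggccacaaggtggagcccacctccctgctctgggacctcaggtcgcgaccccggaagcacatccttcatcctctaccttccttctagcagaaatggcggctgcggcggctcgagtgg
Among the genes with a window that were higher, 7 of 21 held CCGGAAG and 4 of 21 the NRF1 motif, among the lower ones 1 of 4 held each, and among those not called 5 of 8 held CCGGAAG and 3 of 8 the NRF1 motif.

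Other genes of the pathway that the naming rule does not reach were read from 4 lists. Of 12 further genes of import and sorting, 9 (75.0%) were higher and 0 lower by limma, also 0 lower at an unadjusted p under 0.05, beside 28.2% higher and 25.9% lower of all genes tested. Their median log2 difference was 0.20, beside 0.0083 over all genes tested. OXA1L, which inserts proteins into the inner membrane from the matrix, rose from 44.5 ± 0.460 to 62.6 ± 2.77 CPM (SD, n = 3; log2 difference 0.48, limma adjusted p = 1.2e-08). MTX3, a further metaxin, rose by 0.40 and DNAJC11, a J protein tied to the SAM complex, by 0.29 on the log2 scale (limma adjusted p = 5.55e-07 and 4.30e-07). HSPA9, the HSP70 of the import motor, rose from 667.6 ± 9.96 to 766.3 ± 14.2 CPM (SD, n = 3; log2 difference 0.20, limma adjusted p = 3.14e-06; 0.083 after quantile normalization). C19orf52, an older symbol of TIMM29 in the TIM22 complex and chosen after its value was seen, had a log2 difference of 0.10 (limma adjusted p = 0.165).

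Of 15 proteases and chaperones that act on imported proteins, 10 (66.7%) were higher and 0 lower by limma, with a median log2 difference of 0.14, beside 28.2% higher and 25.9% lower of all genes tested. The groups were apart for 53.3% of the list, less than the 60.1% of all genes tested. At an unadjusted p under 0.05, 1 of the 15 was lower, PITRM1, named after its value was seen (log2 difference -0.074). With the replicate number as a block, 2 were lower, and without AIL replicate 1 or AIL replicate 2 only 6 were higher. DNAJA3, a J protein of the matrix, rose from 99.5 ± 2.03 to 131.4 ± 1.43 CPM (SD, n = 3; log2 difference 0.40, limma adjusted p = 4.51e-09). The protease genes CLPP, HTRA2 and PARL rose by 0.25, 0.24 and 0.19 on the log2 scale (limma adjusted p = 1.30e-04, 2.51e-04 and 7.84e-04).

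Of 21 genes whose products are substrates of the CHCHD4 relay, 11 (52.4%) were higher and 2 (9.52%) lower, with a median log2 difference of 0.10. Together 61.9% were called, beside 54.1% of all genes tested. COX19, a copper handling factor of cytochrome oxidase assembly, rose from 14.4 to 23.9 CPM in the mean (log2 difference 0.70, limma adjusted p = 1.30e-08). CMC2 fell by 0.27 on the log2 scale (limma adjusted p = 3.49e-06). CHCHD2 and COX6B1 rose by 0.16 and 0.17 (limma adjusted p = 1.45e-04 and 1.55e-04), and by 0.086 and 0.093 with the length, GC and abundance trend removed. In that alternative 6 of the 21 (28.6%) were higher and 5 (23.8%) lower, near the 30.8% and 28.7% of all genes under the same alternative.

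Of 7 genes of the cristae junction complex, 3 were higher and 1 lower, with a median log2 difference of 0.081, and this 57.1% called was close to the 54.1% of all genes tested. IMMT, its core scaffold, fell from 149.0 ± 2.37 to 128.1 ± 2.98 CPM (SD, n = 3; log2 difference -0.22, limma adjusted p = 5.29e-06). CHCHD3, which is also among the relay substrates, rose by 0.15 and APOO by 0.26 on the log2 scale (limma adjusted p = 3.58e-04 and 0.00117). APOOL rose by 0.21 (limma adjusted p = 0.0230), but its limma adjusted p was 0.103 without AIL replicate 1, 0.116 without DMSO replicate 3, 0.0861 with quantile normalization and 0.0649 with the trend removed.

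**Figure D4:**
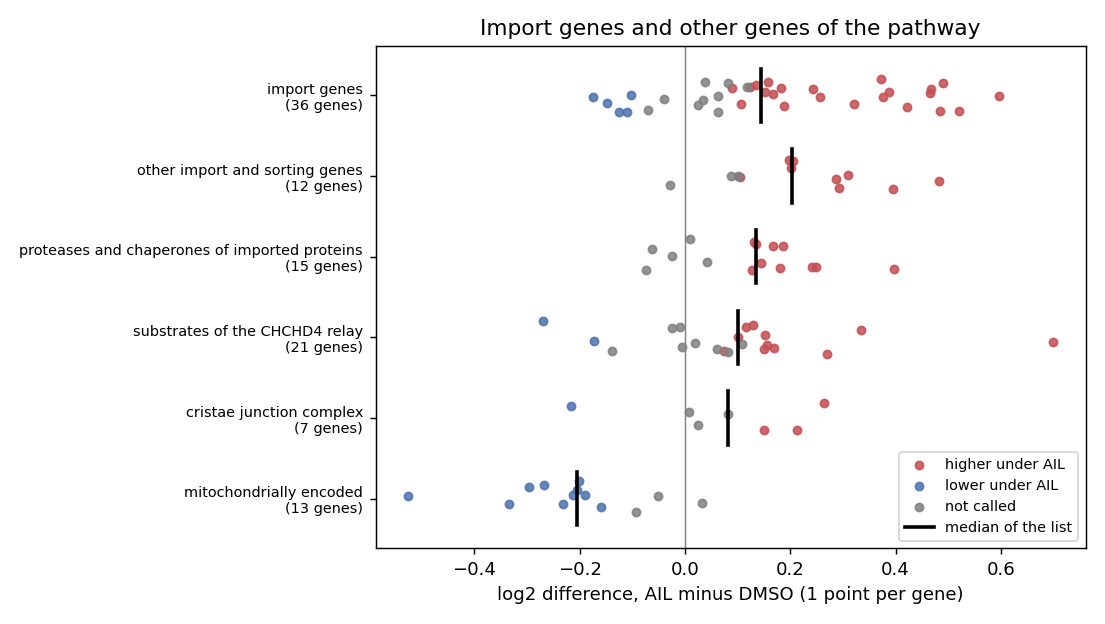
Each point is a gene placed by its log2 difference, AIL minus DMSO (red higher, blue lower, grey not called), with the list's median as a black line. The medians of the import genes and of the 4 other nuclear-encoded lists lie between 0.081 and 0.20, and that of the mitochondrially encoded transcripts at -0.20.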

How the data were processed

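The authors deposited 1 table of per-million counts (CPM) scaled by TMM, per the file name, with values to 2 decimals for 13439 gene symbols. RSEM and edgeR 3.8.5 are named, without a role, in the submitters' processing notes. Aligner, build, annotation and strand setting were not given in the sources used here. Low values step by 1 read, which gave the depths, but rounding kept the steps from passing the criterion for read counts, so the planned count test was not run. Still, 99.95 to 99.98% of the low values checked in each library lay close to a whole number of reads.

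Every gene whose mean reached 1 CPM entered a fit with limma 3.58.1 (R 4.3.3) on log2(CPM + 1), two-sided, with an intensity trend and no covariate. A constant of 1 CPM understates the change of low genes. The genes and lists were chosen with earlier results of these data known, and no list was given a test. Every import gene is named. Values in each library are given for the 8 highest and 8 lowest log2 differences among calls, the most abundant gene of each role, the paired genes and the 2 lowest means. Of each other list, the 4 smallest p-values are named.

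After subtraction of group means, libraries of the same replicate number correlated at 0.159, 0.133 and 0.129, and the others at -0.179 to 0.0210. The labels name no pairing, and correlations this weak do not establish that the numbers pair the libraries. The main fit left the number out, and a fit with the number as a block was an alternative. Squared differences between replicates had a median of 1.24 to 2.35 times that of counting noise, which gave no sign of a repeated deposit but does not show that the cultures were separate. Transcript lengths, GC content and shared 50-base words came from GENCODE 29, with lengths for 10959 of the 11069 tested genes. The alternatives were constants of 0.1 and 5 CPM, no filter, a minimum of 5 CPM, no intensity trend, median-of-ratios scaling, quantile normalization, the block, each library left out, and removal of a trend over length, GC and abundance (mgcv 1.9.3), which was added after the data were seen.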

Additional observations from a re-analysis of the deposited data

How the results depend on the processing

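For 52 named genes and 15 alternatives, 755 of 780 log2 differences kept their direction and side of the limma threshold, 16 lost the call, 7 gained one and 2 changed sign. Of the 36 import genes, 27 kept both under each of the 15. The sign changes were GRPEL1 without AIL replicate 3 (-0.0027, with -0.0027 to 0.053 over all libraries left out in turn) and CHCHD4 with the length, GC and abundance trend removed (-0.0078), neither of them called. That alternative was chosen after seeing the data, and it also gave an import gene median of 0.11 and 6 higher and 5 lower CHCHD4 relay substrates. Leaving out 1 library gave medians of 0.13 to 0.16, 20 to 22 higher import genes, and 6 to 11 higher and 0 to 2 lower proteases and chaperones. Median-of-ratios scaling gave 1 lower protease or chaperone. With the replicate block, 24 import genes were higher and 5 lower, and 2 proteases or chaperones were lower. The block changed the call of TIMM23 and TOMM40 among the import genes. Paired ratios cannot go below an exact p of 0.25. The cause of these shifts was not tested. The planned count test was not run, since the rounded values did not pass the criterion for read counts. Of the 9 uncalled import genes, TIMM23, TOMM40 and TOMM20 passed under some alternatives, and the intervals of the others bound their differences.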
